A study of Mus musculus with 24 samples.

Results

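The genes described here are ligands of the EGF receptor family (Hbegf, Areg, Ereg, Tgfa and Btc), receptors of that family (Egfr and Erbb3) and the feedback inhibitor Errfi1. They were taken by symbol from the platform's table of probe sets and genes, with the probe set of the highest mean where a gene had several. Of the 8 genes, 7 were on a probe set of their own, out of 22180 genes in all. In RefSeq (GRCm38.p6), Ereg (91074617 to 91093649), Areg (91139599 to 91148432) and Btc (91357261 to 91402994) lie in that order on chromosome 5. Hbegf lies on chromosome 18 (36504927 to 36515805), Tgfa on 6 (86195038 to 86275744), Egfr on 11 (16752203 to 16913907), Erbb3 on 10 (128567523 to 128589635) and Errfi1 on 4 (150853796 to 150868889). Areg, which encodes amphiregulin, was not on a probe set of its own and is named only. The set was drawn up with the fall of Hbegf under glucagon in the control cells already known, so that one difference is given as a description without a test. The members and the gene lists below were also chosen with earlier results of these data known. Counts of calls among them are therefore descriptions, and the share over all genes beside them is no test of the set.

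Ligands of this family are made as membrane-anchored precursors. Metalloproteases of the ADAM family release them, and they then bind EGF receptors on the same or neighbouring cells, which pair with each other and switch on the RAS-ERK and PI3-kinase pathways. HB-EGF, TGF-alpha and amphiregulin are known growth factors of regenerating liver, and hepatocytes are rich in EGF receptor. ERBB3 has little kinase activity of its own and signals through its partners, and the Errfi1 product MIG6 binds active receptors and blocks their kinase.

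The data were expression values from 24 Affymetrix MoGene 2.0 ST arrays of primary hepatocytes of male C57Bl6J mice, whose age is not given in the sources used here. The cells carried an adenovirus at a multiplicity of infection of 5, with a hairpin against FOXA2 (shFOXA2, the construct shFOXA2.3) or against bacterial lacZ (shlacZ). They received 1 nM insulin or 100 nM glucagon for 4 h, together with the FXR agonist GW4064 at 2 µM or its vehicle DMSO, in medium with 100 nM dexamethasone. Each of the 8 combinations had 3 arrays, 1 from each of 3 experiments, and each experiment used hepatocytes pooled from 3 mice. No group lacked both hormones, so a lower value under glucagon cannot be told apart from a higher value under insulin. All values below are on the log2 scale, and a difference of 1 is a doubling.

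Arrays of the same group correlated at 0.986 to 0.994 over the 22180 genes, and the median probe set lay between 3.21 and 3.28 on every array. Foxa2, the target of the hairpin, lay at 6.07 to 6.30 under insulin and 7.11 to 7.72 under glucagon in the 12 shlacZ arrays, and at 5.54 to 6.08 and 6.79 to 7.21 in the 12 arrays labelled shFOXA2. It was lower with shFOXA2 in each of the 12 pairs of arrays matched by experiment, by 0.43 on average (SE 0.072), with a limma adjusted p of 0.0613, or 0.0194 with the experiment as a block. The 3 experiments gave -0.51, -0.66 and -0.12. Nr0b2, a direct FXR target, lay at 2.66 to 3.15 in the 12 DMSO arrays and 2.94 to 3.76 in the 12 GW4064 arrays, near the median probe set. It was 0.53 higher with GW4064 (SE 0.081, limma adjusted p = 0.0337), and the call was lost without experiment 1 or 2 (limma adjusted p = 1 each) and without any one of 20 of the 24 single arrays (up to 0.111). Slc51a, another FXR target, lay at 2.36 to 2.84 on all 24 arrays.

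Beside its smaller Foxa2 difference, experiment 3 stood apart in NF-kB targets. Over 12 genes known as NF-kB targets, the mean level in experiments 1 and 2 was 7.68 to 7.96 under insulin and 5.90 to 6.28 under glucagon. In the shlacZ arrays of experiment 3 it was 6.98 and 6.72 under insulin against 7.14 and 7.37 under glucagon, and in its shFOXA2 arrays 7.99 and 7.10 against 5.97 and 6.42. The main differences pooled over conditions and the gene list counts are therefore also given without experiment 3.

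Sequence just upstream of a transcription start in RefSeq (build GRCm38.p6) was on hand for 5 of the 8 genes, as 6 promoters. They were searched on both strands, from 250 bases before to 50 after the start, for the cAMP response element (CRE) TGACGTCA, its half-site TGACG, the AP-1 site TGAGTCA, the EGR sites GCGTGGGCG and GCGGGGGCG, the forkhead site TGTTTAC, the FXR inverted repeat and the CArG box. The full CRE, bound by the CREB factors that glucagon activates through cAMP, was present at the second of 2 starts of Errfi1 and at Areg, and it contains the half-site on both strands. The 30 bases around it are shown with the CRE in capitals, for Errfi1 at chr4:150855008-150855037 and for Areg at chr5:91139527-91139556, both on the plus strand.
Errfi1: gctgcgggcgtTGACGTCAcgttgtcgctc
Areg: gggctggtccgTGACGTCAcgggcggtggc

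The element began 51 bases before the Errfi1 start and 61 bases before that of Areg. Among 32851 promoters of the same length, 1.79% held the full CRE and 20.8% the half-site. The first Errfi1 start and the promoters of Egfr, Tgfa and Btc held no full CRE, and none of the 6 promoters held any of the other motifs apart from half-sites. The 250 bases upstream of the start are shown for Egfr (chr11:16751953-16752202, plus strand), the receptor whose values separated by hormone, in which no motif was found and so none is capitalised. They are also shown for Btc (chr5:91402995-91403244, minus strand), a ligand that fell, with its only match in capitals, a half-site read on the opposite strand 113 bases before the start.
Egfr: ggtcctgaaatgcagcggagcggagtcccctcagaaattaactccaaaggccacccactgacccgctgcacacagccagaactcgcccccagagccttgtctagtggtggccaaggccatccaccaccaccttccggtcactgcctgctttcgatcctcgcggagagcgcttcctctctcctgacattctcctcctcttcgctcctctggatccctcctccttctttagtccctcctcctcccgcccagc
Btc: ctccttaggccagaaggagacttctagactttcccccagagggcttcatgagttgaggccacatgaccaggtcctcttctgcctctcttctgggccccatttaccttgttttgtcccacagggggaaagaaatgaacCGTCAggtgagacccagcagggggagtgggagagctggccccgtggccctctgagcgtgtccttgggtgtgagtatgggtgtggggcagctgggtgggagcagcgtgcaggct

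These matches describe the letters of the windows and say nothing on binding.

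Hbegf was the member that differed most between the hormones. In the control cells (shlacZ, DMSO), the values of Hbegf in experiments 1, 2 and 3 were 7.08, 7.38 and 7.37 under insulin and 4.43, 4.90 and 4.52 under glucagon. The difference there was -2.66 (SE 0.16), a 6.32-fold lower level, and it is the value that led to the choice of these genes. In shFOXA2 cells with DMSO the values were 7.07, 7.18 and 7.33 under insulin against 4.28, 4.72 and 4.63 under glucagon. Every glucagon array lay below every insulin array in both settings.

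With GW4064, shlacZ cells gave 7.61, 7.39 and 7.26 for Hbegf under insulin against 4.89, 5.50 and 4.77 under glucagon. With GW4064 and shFOXA2 the values were 7.67, 7.50 and 7.52 against 4.77, 4.77 and 4.87. The highest glucagon array, 5.50, belonged to experiment 2 and still lay well under the lowest insulin array, 7.07. The 4 insulin groups had means of 7.19 to 7.56 and the 4 glucagon groups 4.54 to 5.06, and neighbouring groups in this order overlapped except at the step of 2.14 between the hormones.

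Tested on the 18 arrays outside the control DMSO pair, Hbegf fell by 2.59 (SE 0.095, 95% interval -2.79 to -2.39), a 6.02-fold difference, with a limma adjusted p of 2.95e-13. It was lower in 9 of 9 pairs, by -2.90 to -1.88, and ranked 6 from the largest fall among 22180 genes. The cells of these arrays came from the pools that also gave the control pair, so they repeat the measurement within the same 3 experiments. Each condition passed alone, with -2.65 in shFOXA2 DMSO (limma adjusted p = 4.49e-09), -2.36 in shlacZ GW4064 (2.98e-08) and -2.76 in shFOXA2 GW4064 (4.95e-09). Of all genes, 2.67%, 1.80% and 2.12% fell in these 3 conditions. Without experiment 3, Hbegf fell by 2.58, and its differences within experiment 3 were -2.70, -2.49 and -2.65 in the 3 conditions.

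**Figure D1:**
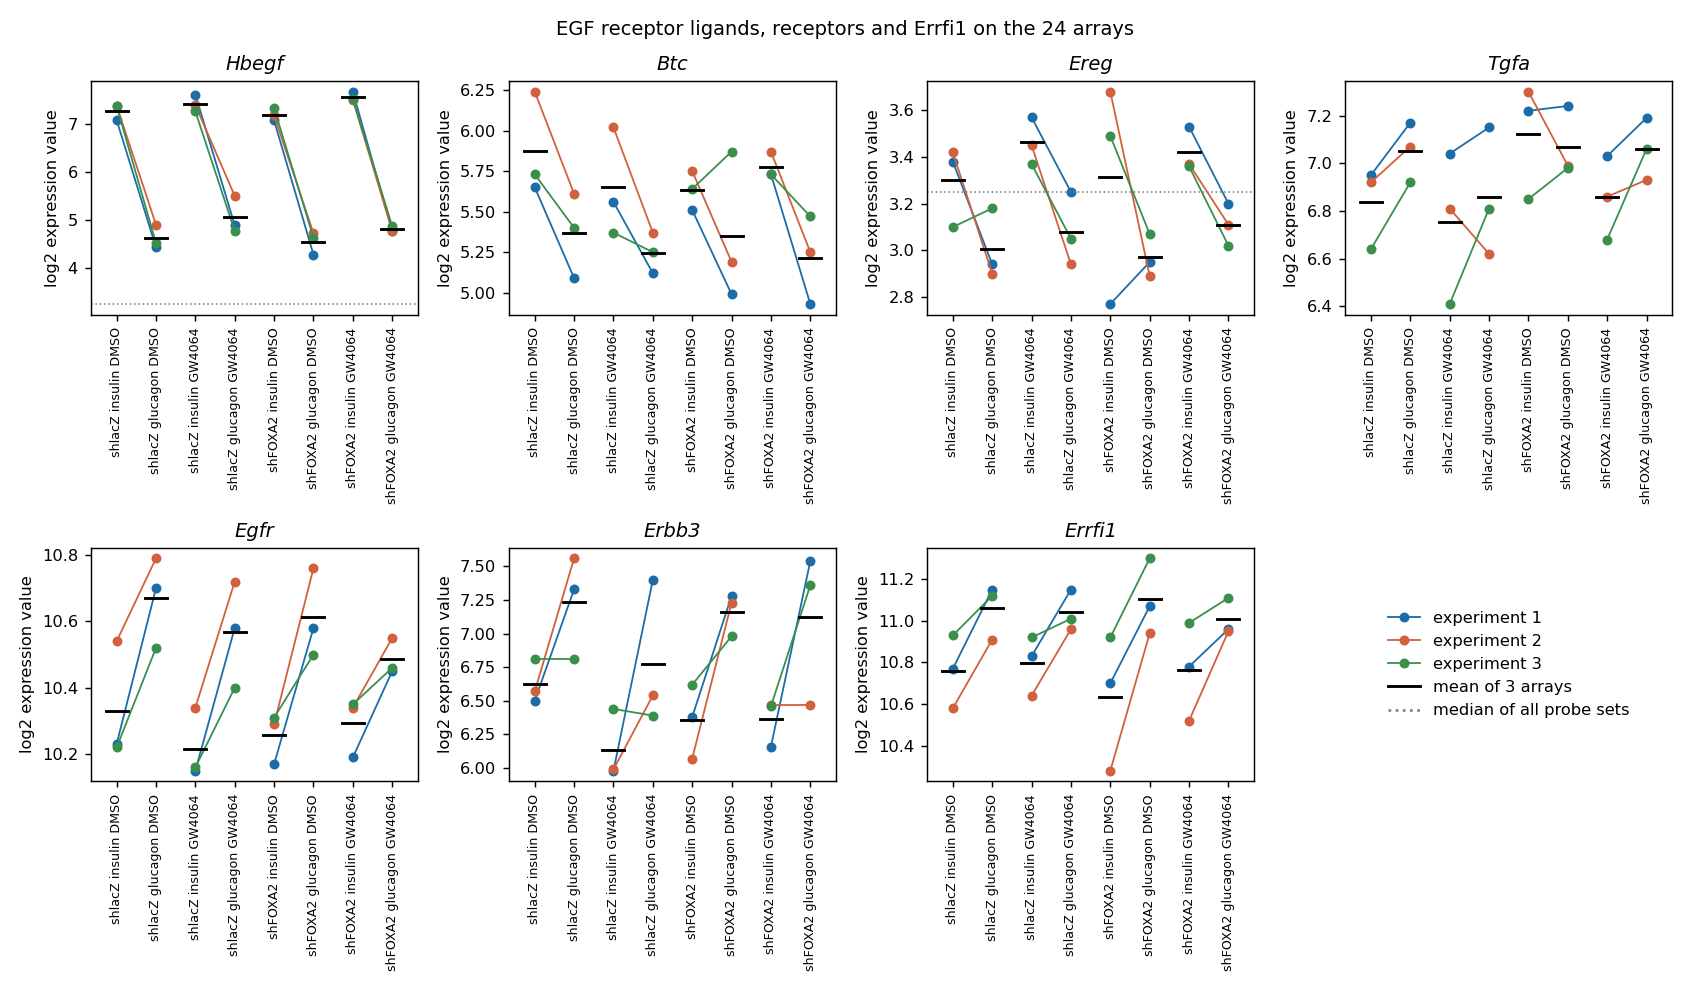
Log2 expression values of the 7 measured genes on the 24 arrays, with a line joining the insulin and glucagon arrays of 1 experiment, a black bar for the mean of 3 arrays and, where shown, a dotted line at the median of all probe sets. All 12 Hbegf lines fall and all 12 Egfr and Errfi1 lines rise from insulin to glucagon, and the vertical scales differ between panels.

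Over the same 18 arrays, 6 of the 7 measured genes passed the threshold of an adjusted p under 0.05. The ligands Hbegf, Btc and Ereg were lower under glucagon, and both receptors and Errfi1 were higher. Of all genes tested, 12.8% passed, 5.90% higher and 6.90% lower. The calls other than that of Hbegf rest on smaller differences, of 0.30 to 0.74 in size. Each of these calls was lost without at least 1 of the experiments, as given below. With the experiment as a block, all 6 calls passed. The 9 pairs of arrays for each gene came from only 3 experiments, and neither fit lets the hormone difference vary between experiments. The p-values and pair counts therefore do not measure the spread of the difference between experiments.

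Btc, which encodes betacellulin, a ligand of EGFR and ERBB4, had 5.51, 5.75 and 5.64 under insulin and 4.99, 5.19 and 5.87 under glucagon in shFOXA2 DMSO cells. In shlacZ cells with GW4064 it had 5.56, 6.02 and 5.37 against 5.12, 5.37 and 5.25, and in shFOXA2 cells with GW4064 5.73, 5.87 and 5.73 against 4.93, 5.25 and 5.47. It was lower under glucagon in 8 of these 9 pairs, and the exception was experiment 3 in shFOXA2 DMSO. Btc fell by 0.41 (SE 0.12, 95% interval -0.67 to -0.16, limma adjusted p = 0.0264), and experiments 1, 2 and 3 gave -0.59, -0.61 and -0.05. The call was lost without experiment 1 (-0.33, limma adjusted p = 0.282) or experiment 2 (-0.32, 0.279), and without experiment 3 the difference was -0.60. It was also lost without any one of 7 single arrays (limma adjusted p 0.0531 to 0.0651), which are listed with the limits. With the experiment as a block, the fall in shFOXA2 GW4064 cells alone also passed (-0.56, limma adjusted p = 0.201 without and 0.0387 with the block), where 5.05% of all genes fell with the block. In the control DMSO cells, Btc had 5.65, 6.24 and 5.73 under insulin against 5.09, 5.61 and 5.40 under glucagon.

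Ereg, which encodes epiregulin, lay close to the median probe set on all arrays, from 2.77 to 3.68. Its 9 insulin arrays ran from 2.77 to 3.68 with a median of 3.45, and its 9 glucagon arrays from 2.89 to 3.25 with a median of 3.05. The groups overlapped through 1 array, the shFOXA2 DMSO insulin array of experiment 1, which at 2.77 was the lowest of all. Ereg fell by 0.35 (SE 0.093, limma adjusted p = 0.015) and was lower in 8 of 9 pairs. The call was lost without experiment 2 (-0.26, limma adjusted p = 0.286) or experiment 3 (-0.34, 0.112). Of all genes, 49.6% had a lower mean than Ereg, and a second Ereg probe set had a mean of 2.81. The second probe set ran from 2.51 to 3.05 over the arrays. With the mean of both probe sets, the fall of Ereg was 0.17 (limma adjusted p = 0.0315), against 0.35 with the first alone. The second probe set thus showed little of the fall. It was not tested alone, and the mean includes the first, so that call is no separate support.

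Tgfa, which encodes TGF-alpha, gave no call. Its 9 insulin arrays ran from 6.41 to 7.30 with a median of 6.86 and its 9 glucagon arrays from 6.62 to 7.24 with a median of 6.99, so the groups overlapped almost completely. The difference was 0.09 (SE 0.093, limma adjusted p = 0.717), with a 95% interval of -0.11 to 0.28. Without experiment 3 it was -0.02. Tgfa was higher under glucagon in 7 of 9 pairs, and in the control DMSO cells it had 6.95, 6.92 and 6.64 under insulin against 7.17, 7.07 and 6.92 under glucagon.

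Egfr, the receptor shared by all 5 ligands, separated the 18 arrays by hormone without overlap. In shFOXA2 DMSO cells it had 10.17, 10.29 and 10.31 under insulin against 10.58, 10.76 and 10.50 under glucagon. In shlacZ cells with GW4064 it had 10.15, 10.34 and 10.16 against 10.58, 10.72 and 10.40, and in shFOXA2 cells with GW4064 10.19, 10.34 and 10.35 against 10.45, 10.55 and 10.46. Hbegf and Egfr were the 2 of 7 genes whose 9 insulin and 9 glucagon arrays did not overlap, in opposite directions. Over all genes, 3.62% did not overlap, 1.41% with glucagon above and 2.21% with glucagon below.

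Egfr rose by 0.30 (SE 0.06, 95% interval 0.17 to 0.43), or 1.23-fold, with a limma adjusted p of 0.00147. The experiments gave 0.37, 0.35 and 0.18, and the call was lost without experiment 1 (0.27, limma adjusted p = 0.119). Without experiment 3 the rise was 0.36. With the experiment as a block, the rises in shFOXA2 DMSO (0.36, limma adjusted p = 0.0549 without and 0.0042 with the block) and shlacZ GW4064 (0.35, 0.0878 and 0.00728) passed alone, and 5.32% and 3.91% of all genes rose there with the block. In the control DMSO cells Egfr had 10.23, 10.54 and 10.22 under insulin and 10.70, 10.79 and 10.52 under glucagon, where the highest insulin array, of experiment 2, lay above the lowest glucagon array, of experiment 3.

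Erbb3, the receptor for neuregulins that pairs with EGFR or ERBB2, varied more among arrays. In shFOXA2 DMSO cells it had 6.38, 6.07 and 6.62 under insulin against 7.28, 7.23 and 6.98 under glucagon. In shlacZ cells with GW4064 it had 5.98, 5.99 and 6.44 against 7.40, 6.54 and 6.39, and in shFOXA2 cells with GW4064 6.16, 6.47 and 6.46 against 7.54, 6.47 and 7.36. Under glucagon with GW4064, single arrays ranged from 6.39 to 7.54, while the 9 insulin arrays stayed between 5.98 and 6.62.

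Erbb3 rose by 0.74 (SE 0.15, 95% interval 0.41 to 1.06), or 1.67-fold, with a limma adjusted p of 0.00213, and was higher in 8 of 9 pairs. The experiments gave 1.23, 0.57 and 0.40. The call was lost without experiment 1 (0.49, limma adjusted p = 0.169), and without experiment 3 the rise was 0.90. In shFOXA2 DMSO alone the difference of 0.81 passed only with the experiment as a block (limma adjusted p = 0.101 without and 0.0463 with it). In the control DMSO cells Erbb3 had 6.50, 6.57 and 6.81 under insulin and 7.33, 7.56 and 6.81 under glucagon, so experiment 3 showed a difference of -0.01 there.

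Errfi1, the feedback inhibitor, was higher under glucagon in 9 of 9 pairs. Its arrays in shFOXA2 DMSO cells had 10.70, 10.28 and 10.92 under insulin against 11.07, 10.94 and 11.30 under glucagon. In shlacZ cells with GW4064 it had 10.83, 10.64 and 10.92 against 11.15, 10.96 and 11.01, and in shFOXA2 cells with GW4064 10.78, 10.52 and 10.99 against 10.96, 10.95 and 11.11. The groups overlapped narrowly, between 10.94 and 10.99, and experiment 2 was the lowest of the 3 in each insulin group.

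Errfi1 rose by 0.32 (SE 0.085, 95% interval 0.14 to 0.50), or 1.25-fold, with a limma adjusted p of 0.0142 and experiments at 0.29, 0.47 and 0.20. The call was lost without experiment 1 (0.33, limma adjusted p = 0.208) or experiment 2 (0.24, 0.0759), and without experiment 3 the rise was 0.38. With the experiment as a block, the rise of 0.47 in shFOXA2 DMSO alone passed (limma adjusted p = 0.0788 without and 0.00133 with it). The control DMSO cells had 10.77, 10.58 and 10.93 under insulin against 11.15, 10.91 and 11.12 under glucagon.

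**Figure D2:**
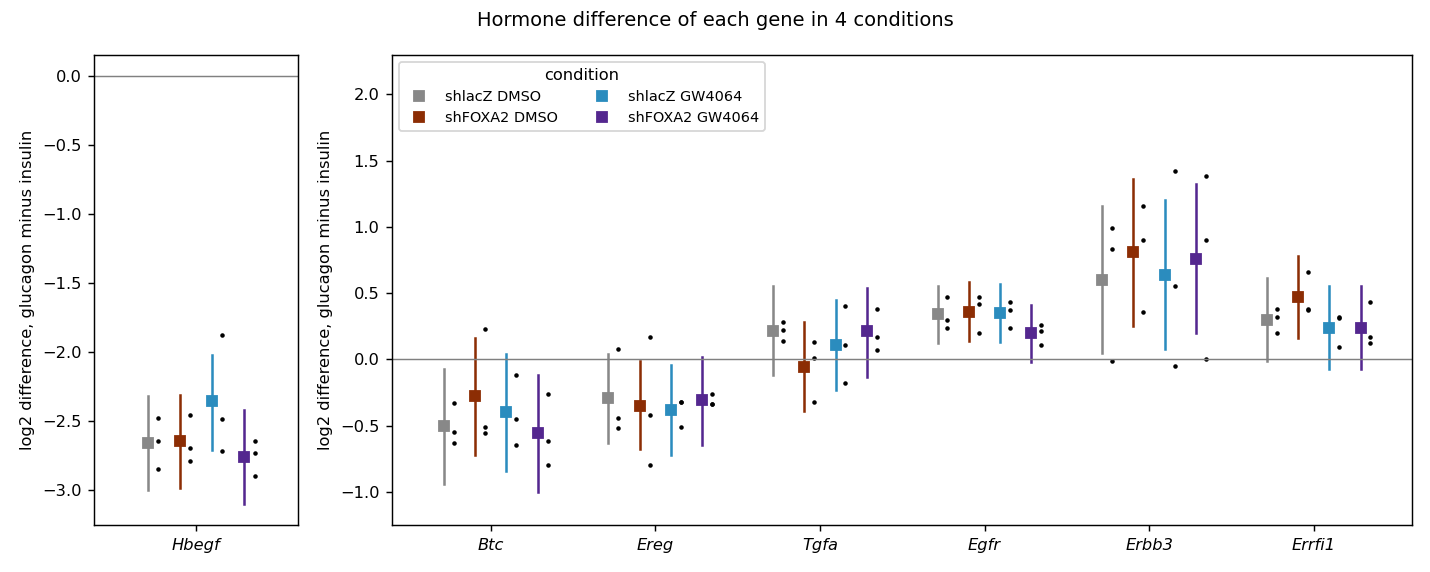
Log2 difference between glucagon and insulin for each gene in the 4 conditions, with squares for the mean of 3 experiments, bars for the 95% interval of the limma fit and small dots for the single experiments. Hbegf lies between -2.76 and -2.36 in the left panel, and the right panel, on its own vertical scale, shows differences between -0.56 and 0.81 for the other 6 genes.

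The hormone difference was next compared between hairpins and between drug and vehicle. For Hbegf, the difference between glucagon and insulin in shFOXA2 cells minus that in shlacZ cells was -0.19 (SE 0.16, 95% interval -0.54 to 0.15). With GW4064 minus with DMSO it was 0.09 (95% interval -0.25 to 0.44). Neither passed (limma adjusted p = 1). Restricted to the GW4064 arrays, which leave out the control DMSO pair, the hairpin comparison gave -0.40, and restricted to the shFOXA2 arrays the drug comparison gave -0.11. Without experiment 3 the Hbegf values were -0.29 for the hairpin and 0.04 for the drug. The widest intervals were those of Erbb3, from -0.39 to 0.72 for the hairpin and from -0.56 to 0.55 for the drug. No gene of 22180 passed either comparison with limma or for drug by hairpin (0% each), and 921, 584 and 705 genes had an unadjusted p under 0.05 for hormone by hairpin, hormone by drug and drug by hairpin.

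GW4064 was compared with DMSO over the 4 combinations of hairpin and hormone. Hbegf was higher with GW4064 in 11 of 12 pairs, with single pairs at -0.11 to 0.61 and a mean level of 6.21 against 5.91. The difference was 0.30 (SE 0.082, 95% interval 0.13 to 0.48), but it did not pass over all genes (limma adjusted p = 1, or 0.351 with the experiment as a block). The 3 experiments gave 0.52, 0.24 and 0.14. By condition it was 0.14 under insulin and 0.44 under glucagon in shlacZ cells, and 0.37 and 0.26 in shFOXA2 cells. Without experiment 3 it was 0.38. Only 2 genes passed this comparison, or 0.00902% of all genes, and 766 had an unadjusted p under 0.05.

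Among the other members, Tgfa was lower with GW4064 in 10 of 12 pairs (-0.14, SE 0.081, 95% interval -0.31 to 0.03). Erbb3 differed by -0.24 (SE 0.13, 95% interval -0.52 to 0.03) and Egfr by -0.08 (SE 0.052, lower in 9 of 12 pairs). Errfi1 differed by 0.01 (95% interval -0.14 to 0.16), Ereg by 0.12 and Btc by -0.08. None of the 7 genes passed, and without experiment 3 these 6 differed by -0.29 (Erbb3) to 0.19 (Ereg).

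With shFOXA2 against shlacZ, 2 genes of all passed (0.00902%), or 17 with the experiment as a block (0.0766%), and none was a member with either. Hbegf differed by -0.07 (SE 0.082, 95% interval -0.24 to 0.11), with 5 of 12 pairs higher and 7 lower. Tgfa was higher with shFOXA2 in 10 of 12 pairs, by 0.15 (SE 0.081, limma adjusted p = 0.825). The remaining differences were -0.04 for Btc, -0.01 for Ereg, -0.03 for Egfr, 0.06 for Erbb3 and -0.04 for Errfi1. Without experiment 3 the members ran from -0.18 (Btc) to 0.13 (Tgfa), with Hbegf at -0.15. The widest of these intervals, that of Erbb3, ran from -0.22 to 0.34, while Foxa2 itself differed by -0.43, and 1376 genes had an unadjusted p under 0.05.

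**Figure D3:**
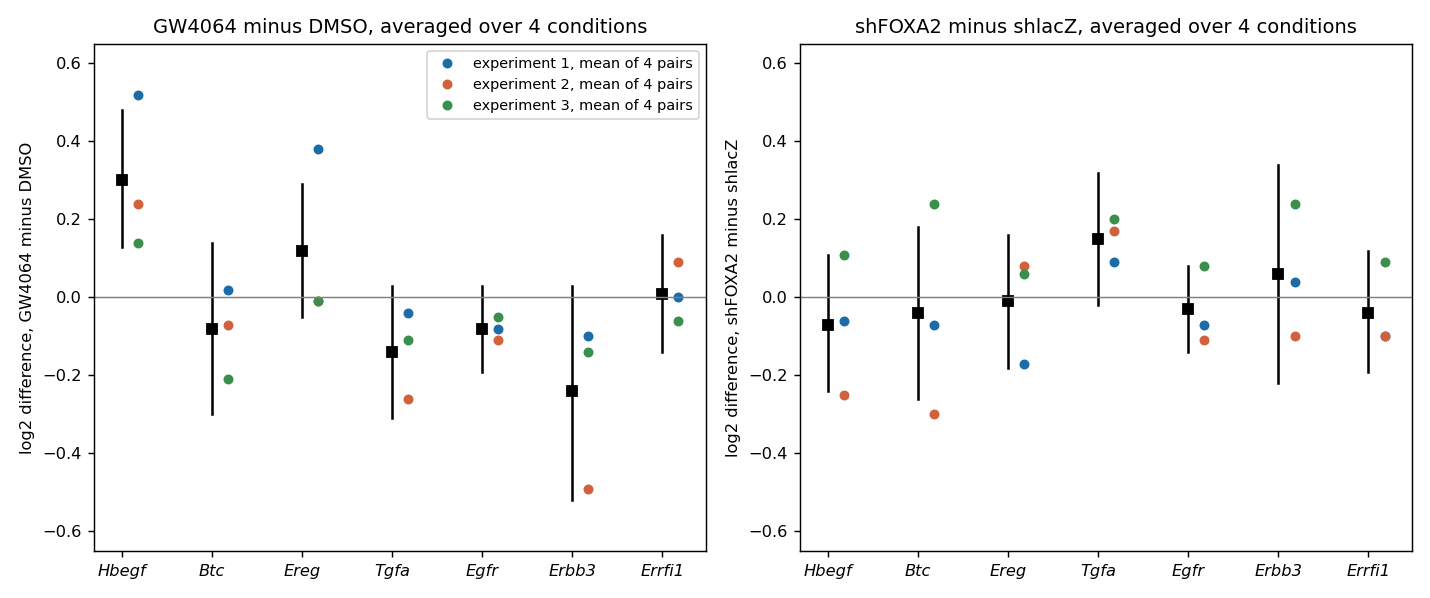
Log2 difference of the 7 genes for GW4064 minus DMSO (left) and shFOXA2 minus shlacZ (right), each averaged over 4 conditions, with squares for the estimate, bars for the 95% interval and coloured dots for the 3 experiments. The interval of Hbegf with GW4064, 0.13 to 0.48, is the one that does not cross 0 before adjustment, and no gene shown passed over all genes.

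The other genes around the receptor were counted on the 18 arrays by role, and the median over all genes was 0.00. These lists were chosen with earlier results of these data known, so their counts describe the lists and do not test them. The list counts in other settings, here and for the markers below, stand against calls over all 22180 genes that also changed. These calls numbered 2839 in the main fit and 4644 with the experiment as a block. Without experiment 1, 2 and 3 they numbered 1365, 1623 and 2807. Of 11 ligands of the whole family, 10 were measured, and the 3 that passed were the members above, with a median of 0.00. Nrg4, a neuregulin that binds ERBB4, differed by 1.11 without passing (limma adjusted p = 0.0752), but passed with the experiment as a block (2.06e-06). Of the 4 receptors, Egfr and Erbb3 rose, and the median of the 4 differences was 0.15. Erbb2 lay near the median probe set, and Erbb4, with group means of 2.38 to 2.50, lay under it (differences of -0.01 and -0.01). Without experiment 1 neither Egfr nor Erbb3 passed, and without experiment 3 both did. Of the ligands, 2 fell without experiment 1, 1 fell without experiment 2, and 2 fell and 1 rose without experiment 3.

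Of 8 genes for shedding and trafficking of the ligands, 2 fell and 2 rose, with a median of -0.02. Rhbdf2 and Rhbdf1, which encode the iRhoms that carry the protease ADAM17 to the cell surface, fell by 1.32 (SE 0.11) and 0.75 (SE 0.12). Adam10, another sheddase, rose by 0.42, and Cd9, a tetraspanin that associates with the HB-EGF precursor, rose by 0.31. Adam17 itself differed by -0.02. Without experiment 1, 1 rose and 2 fell, and without experiment 3 the counts were 2 and 2. With the experiment as a block, 2 rose and 3 fell.

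Of 11 adaptors and ubiquitin ligases, 3 rose and 2 fell (median 0.00). Cblb, a ubiquitin ligase of the Cbl family, rose by 1.07 (SE 0.16), and Cbl, which tags active EGF receptor for degradation, fell by 0.42. Sos1, an exchange factor for RAS, rose by 0.44, and the phosphatase gene Ptpn11 fell by 0.43. Of 15 genes of the RAS-ERK cascade, 9 were on probe sets of their own, with Map2k1 0.42 higher and Nras 0.15 lower (median 0.05). Neither passed without experiment 1 or without experiment 2, and Nras did not pass without both shFOXA2 DMSO arrays of experiment 3. Without experiment 3, 1 gene of the cascade rose and 1 fell, and of the adaptors and ligases 3 rose and 2 fell. Without experiment 1 or without experiment 2, 2 of the adaptors and ligases rose and 1 fell.

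Errfi1 stood among 18 feedback inhibitors of the receptors and of ERK, of which 9 fell and Errfi1 alone rose, with a median of -0.31. The falls were those of Dusp6 (-1.86, SE 0.21), Lrig1 (-1.56, SE 0.10), Spry1 (-1.13), Socs5 (-0.87), Spry4 (-0.80), Spred3 (-0.78), Dusp5 (-0.66), Socs4 (-0.50) and Lrig2 (-0.34). Dusp6 and Dusp5 encode phosphatases of ERK, the Sprouty and Spred products curb signalling to RAS and RAF, and LRIG1 promotes degradation of ERBB receptors. With the experiment as a block, 2 rose and 11 fell. Without experiment 1 none rose and 6 fell, and without experiment 2 none rose and 8 fell, while without experiment 3 the counts were 1 and 9.

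Of 19 genes that growth factors induce early or with a delay, 12 fell and none rose, with a median of -0.67. The largest falls were those of Egr1 (-3.22, SE 0.11), Phlda1 (-2.54, SE 0.25), Ier3 (-2.05, SE 0.33) and Ier2 (-2.01, SE 0.13). Without experiment 1, 2 or 3, 9, 11 and 13 of them fell. Of the 12 NF-kB targets, 10 fell (median -1.32), led by Csf1 (-2.61), Il23a (-2.59), Cxcl1 (-2.09) and Cxcl2 (-1.77). Without experiment 1 or without experiment 2, 5 of them passed, and without experiment 3 all 12 did. The part of these changes in the fall of Hbegf was not tested.

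**Figure D4:**
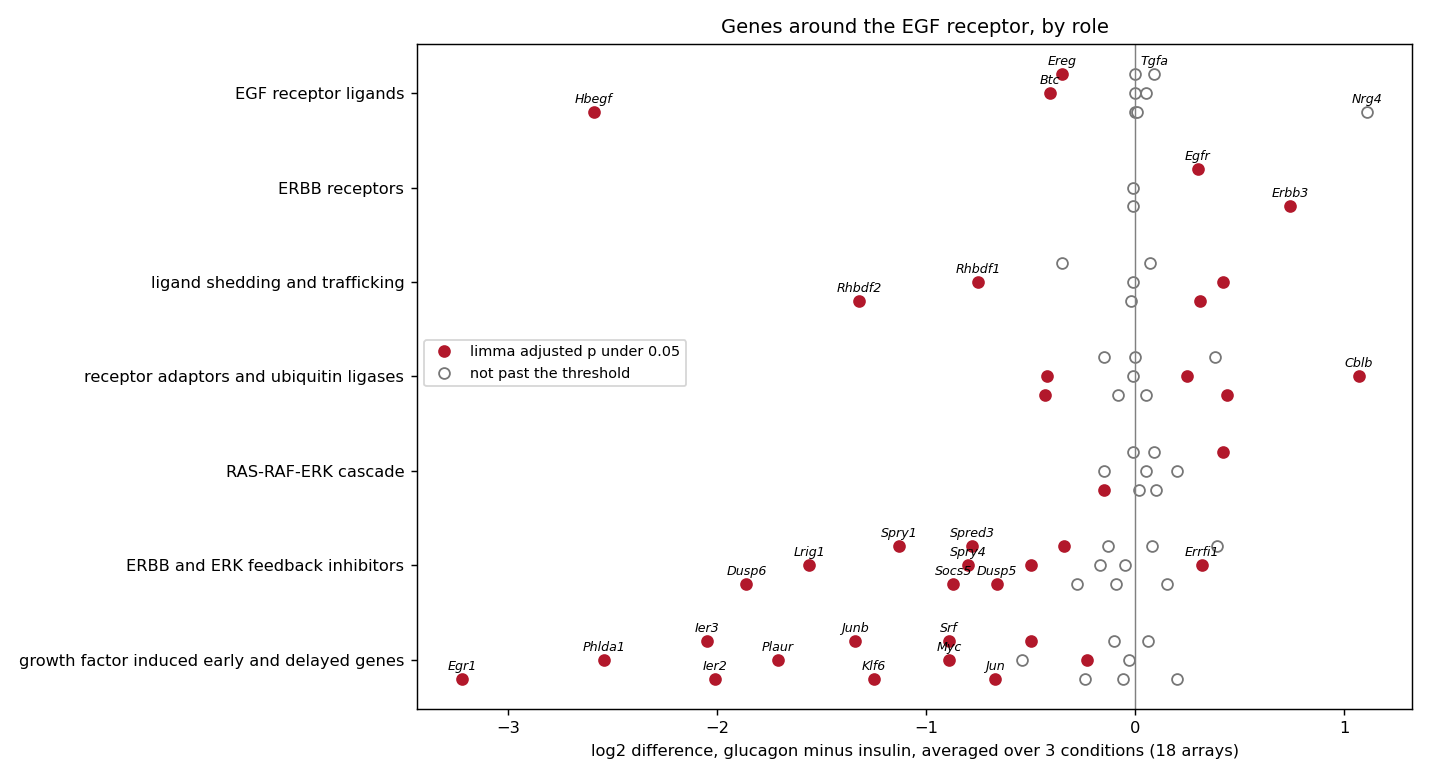
Log2 difference between glucagon and insulin over the 18 arrays outside the control DMSO pair, 1 point a gene, grouped by role, filled where the limma adjusted p was under 0.05. Hbegf, at -2.59, lies apart from the other ligands, and Errfi1, at 0.32, is the one filled point right of 0 among the feedback inhibitors.

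In a bulk culture, fewer cells of a type and less RNA per cell cannot be told apart. Of 11 hepatocyte markers, 3 rose under glucagon (Tat by 2.97, Hnf4a by 0.94 and Fga by 0.91) and none fell. Of all genes, 5.90% rose and 6.90% fell. The mean of the hepatocyte list ran from 7.87 to 8.80 in the insulin arrays and from 8.64 to 9.28 in the glucagon arrays. Without experiment 1, 1 hepatocyte marker rose, without experiment 3, 3 rose, and with the experiment as a block 6 rose. Alb, the albumin gene, had 13.08 under both hormones. Of 6 bile duct cell markers, Sox9 fell by 1.24, from 7.85 to 6.62, and its list mean ran from 4.45 to 4.90 in the insulin arrays and from 4.17 to 4.47 in the glucagon arrays. The call of Sox9 was lost without experiment 1 or 2, and 2 of these markers fell without experiment 3 or with the experiment as a block. Group means of Krt19 ran from 4.12 to 4.84, with a difference of -0.59 that did not pass (limma adjusted p = 0.211, or 9.74e-05 with the block), and those of Onecut2 from 6.53 to 6.93. Epcam (3.39 under both hormones), Krt7 and Cftr lay near or under the median probe set.

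No marker of 8 for macrophages, 8 for endothelial cells or 8 for lymphocytes passed, and 1 of 8 for stellate cells did (Dcn, 0.38 higher). The first 3 lists had no call without experiment 3 either. The call of Dcn was lost with median centring, without experiment 1 or 3 and without both shFOXA2 DMSO arrays of experiment 3, and with the experiment as a block 3 stellate and 1 endothelial marker rose. Macrophage list means ran from 3.44 to 3.87 under insulin and from 3.55 to 3.96 under glucagon, with group means of 8.81 to 9.35 for Cd68 and 3.89 to 4.13 for Marco, and the other 6 markers under the median probe set. Endothelial means ran from 4.00 to 4.83 and from 4.03 to 4.86, and Cdh5 and Lyve1 were clearly above the median probe set. Stellate means ran from 3.61 to 4.05 and from 3.75 to 4.09, lymphocyte means from 2.55 to 2.70 and from 2.49 to 2.78, and none of the 4 erythroid markers was on a probe set of its own. The part of the markers in the results above was not tested.

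The genes whose values over the 24 arrays were most like those of each member were found among 7510 genes with a mean of 5 or more. For Hbegf they were Erlin1 (Pearson r of 0.970), Otud1 (0.968), Egr1 (0.966), Fam13b (0.965) and Klf6 (0.962). Errfi1 was most like Mal2 (0.951), Mgst1 (0.939) and Scp2 (0.938), and Egfr most like Cnpy2, Clec2d and Atm (0.906 each). Erbb3 was most like Txndc11 (0.887), Pik3c3 (0.881) and Wdfy3 (0.872). For Btc the genes were Noc3l (0.860), Smim15 (0.858) and Cep170 (0.856), and for Tgfa, which did not separate by hormone, Atp6v0a2 (0.893), Map3k3 (0.848) and Laptm4b (0.829). All points share the same arrays, hormones and experiments, so these values describe likeness and nothing more.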

How the data were processed

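Total RNA (300 ng) was hybridised to MoGene 2.0 ST arrays, and the authors processed the arrays with GeneSpring, per the series' design text, with 3 technical replicates pooled by sample. The deposited values are on a log2 scale, from 1.46 to 13.5, with no statement on background correction or normalization in the labels used. They were used as deposited.

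Of 41345 probe sets, 23521 had 1 gene symbol, 1814 several and 16010 none, and 23328 names matched the RefSeq gene table of GRCm38.p6. Probe sets with 1 symbol gave 22180 genes, on the probe set of highest mean. Levels of different probe sets are not comparable. One limma fit (limma 3.58.1, R 4.3.3) held 1 mean for each of the 8 groups, on 24 arrays with 16 residual degrees of freedom, and p-values were Benjamini-Hochberg adjusted over all genes at a threshold of 0.05. All adjusted p-values in the text are from limma. The number of arrays limits the precision.

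Arrays of the same experiment deviated together from their group means in all 84 pairs (r of 0.374 to 0.698), so the experiments pair the arrays. The main fit leaves out this pairing, so the shared deviation stays in its error. Neither the main fit nor the fit with the experiment as a block lets a difference vary between experiments. Their p-values, standard errors and intervals, and the counts of pairs, therefore do not measure how a difference varies between the 3 experiments. Foxa2 for the hairpin, and Nrg4 and Krt19 for the hormone, did not pass in it but passed with the experiment as a block. Blocking on the experiment, which leaves 14 residual degrees of freedom, is an alternative. The others were median centring, quantile normalization, an intensity trend with robust priors, the mean of all probe sets of a gene, a level filter of 4 and leaving out arrays or experiments. The restrictions to the GW4064 or the shFOXA2 arrays were chosen after seeing the data.

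The members and gene lists were chosen with earlier results of these data known. All 8 members are named, the called genes of the ligand, receptor and feedback lists, at most the 4 called genes of largest difference of each other list, and the 3 genes most like a member (5 for Hbegf). Ligands, receptors and markers that did not pass, Nrg4, Erbb2, Erbb4, Adam17, Alb, Nr0b2, Slc51a and the markers given against the median probe set, were named after their values were seen. The fit was tested on simulated data with independent noise on each array. That simulation held no deviation shared by an experiment, so it does not cover the pairing of the arrays.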

Additional observations from a re-analysis of the deposited data

Results flagged for a closer look

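Of 84 comparisons of a gene's hormone, drug or hairpin difference between 2 conditions (7 genes, 12 comparisons each), 5 had all 3 experiments on one side of 0 in one condition and on the other side in the other. The difference itself was tested with limma in each case and none passed (adjusted p = 1, and 0.938 to 0.999 with the experiment as a block). The tests used the values that picked the 5 cases, and how often all genes show such signs was not counted. The hairpin difference of Hbegf under insulin was 0.14 with GW4064 (0.06, 0.11 and 0.26) and -0.08 with DMSO (-0.01, -0.20 and -0.04), a contrast of 0.23 (SE 0.23). For Erbb3 the same contrast was 0.50 (SE 0.38), from 0.23 and -0.27.

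The drug difference under insulin was 0.15 for Btc in shFOXA2 cells and -0.22 in shlacZ cells, a contrast of 0.37 (SE 0.30). For Egfr it was 0.03 and -0.11, a contrast of 0.15 (SE 0.15). In shFOXA2 cells, the Egfr drug difference was -0.13 under glucagon and 0.03 under insulin, a contrast of -0.16 (SE 0.15).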

How the results depend on the processing

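The fall of Hbegf over the 18 arrays passed in all 28 alternatives (-2.71 to -2.49). The calls of Btc, Ereg, Egfr, Erbb3 and Errfi1 were lost without single experiments, as given above, and that of Btc also without 1 of these arrays: shFOXA2 DMSO glucagon of experiment 1 or 2, shFOXA2 DMSO insulin of experiment 2, shFOXA2 GW4064 glucagon of experiment 1, shFOXA2 GW4064 insulin of experiment 2, shlacZ GW4064 glucagon of experiment 1 or shlacZ GW4064 insulin of experiment 2. Leaving out an experiment also removes residual degrees of freedom. The cause of these changes was not tested.

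With the experiment as a replicate block, the genes called rose from 1062 to 2500 in shFOXA2 DMSO, from 775 to 2027 in shFOXA2 GW4064, from 686 to 1865 in shlacZ GW4064, from 2839 to 4644 over the 3 conditions and from 2 to 17 for the hairpin; beyond the calls given above it changed no call of a member. Other settings also gave member calls in single conditions (limma adjusted p). In shFOXA2 DMSO, Egfr passed with the intensity trend (0.0486) and the level filter (0.0349). Errfi1 passed there with the level filter (0.0459) or without insulin array 3 (0.0249), and Ereg without insulin array 1 (0.00592). Egfr passed in shlacZ GW4064 without glucagon array 3 (0.0436), and Erbb3 in shFOXA2 GW4064 without glucagon array 2 (0.0218). Array numbers are experiment numbers. Without both shFOXA2 DMSO arrays of experiment 3, 595 genes were called in shFOXA2 DMSO and 0 for GW4064. For GW4064, 1 gene was called with the level filter and 1 with quantile normalization, and for the hairpin 4 with centring and 4 with quantile normalization. Leaving out arrays or experiments gave 362 to 913 genes in shFOXA2 DMSO, 181 to 845 in shFOXA2 GW4064, 174 to 797 in shlacZ GW4064, 1365 to 2807 over the 3 conditions, 0 to 3 for GW4064 and 0 to 4 for the hairpin.

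Differences that did not pass changed sign as follows. Without both shFOXA2 DMSO arrays of experiment 3, Btc gave 0.04 for hormone by drug and -0.09 for hormone by hairpin. Erbb3 gave 0.01 for hormone by drug with centring, and Ereg 0.05 with all its probe sets. Restricted to the GW4064 arrays, hormone by hairpin gave -0.16 for Btc, -0.00 for Errfi1 and 0.10 for Tgfa. Restricted to the shFOXA2 arrays, hormone by drug gave 0.03 for Ereg and -0.11 for Hbegf. Leaving out arrays or experiments gave these ranges. For hormone by drug the ranges were Btc -0.18 to 0.04, Erbb3 -0.28 to 0.39, Ereg -0.18 to 0.11, Hbegf -0.02 to 0.18 and Tgfa -0.01 to 0.15. For hormone by hairpin the ranges were Btc -0.10 to 0.13, Erbb3 -0.09 to 0.34, Ereg -0.13 to 0.14, Errfi1 -0.00 to 0.17 and Tgfa -0.16 to 0.00. For shFOXA2 against shlacZ the ranges were Btc -0.18 to 0.09, Egfr -0.09 to 0.01, Erbb3 -0.03 to 0.14, Ereg -0.06 to 0.07, Errfi1 -0.10 to 0.01 and Hbegf -0.15 to 0.03. For GW4064 against DMSO the ranges were Ereg -0.01 to 0.19 and Errfi1 -0.03 to 0.05. For glucagon against insulin, Tgfa ranged from -0.20 to 0.07 in shFOXA2 DMSO, from -0.07 to 0.25 in shlacZ GW4064 and from -0.02 to 0.20 over the 3 conditions.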
